A study of Mus musculus with 8 samples.

Results

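The adipogenic transcription factors are the DNA-binding proteins that turn a precursor cell into a fat cell and then keep the fat cell's genes active. The 10 genes described here are *Pparg*, *Rxra*, *Nr1h3*, *Cebpa*, *Cebpb*, *Cebpd*, *Srebf1*, *Klf15*, *Ebf1* and *Zfp423*. They were taken by name, though with earlier results of these data known, and all 10 were among the 18820 genes measured. They were compared in epididymal white fat, a visceral depot, of 4 *Sucnr1*-/- and 4 WT mice, with 1 Affymetrix Mouse Gene 1.1 ST array per mouse. All animals were male C57BL/6 mice from crosses of heterozygous parents. They received a semi-synthetic low-fat diet (LFD) for 16 weeks, from 8 to 10 weeks of age by the labels, and were killed at 24 to 26 weeks. The *Sucnr1*-/- mice carried a lacZ and neo replacement allele of the succinate receptor gene in every tissue, not in fat cells alone. The question was whether the regulators of fat cell identity differed in level between the genotypes.

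Fat cell formation proceeds in steps. *Ebf1* and *Zfp423* act in precursor cells, where Zfp423 commits them to the fat lineage. Once a precursor receives a hormonal signal, C/EBPβ and C/EBPδ appear early and switch on *Pparg* and *Cebpa*, which then maintain each other's expression. PPARγ, encoded by *Pparg*, is a nuclear receptor that binds DNA together with a retinoid X receptor, most often RXRα from *Rxra*, and drives genes of lipid uptake and storage. LXRα (*Nr1h3*), a receptor for oxysterols, and SREBP1 (*Srebf1*), a protein released from the endoplasmic reticulum, control cholesterol export and fatty acid synthesis. KLF15 (*Klf15*) is a zinc-finger factor induced by glucocorticoids that promotes expression of the glucose transporter gene *Slc2a4*. In mature adipose tissue most of these genes are active in fat cells, but *Nr1h3*, *Cebpb* and *Cebpd* are also used by macrophages.

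Upstream sequence from RefSeq (GRCm38.p6) was found for 9 of the 10 genes, in 17 start sites, and not for *Cebpd*. The 250 bases before each start were searched on both strands. The upstream regions of *Cebpb* and *Klf15* are shown because these genes had the widest spread within genotypes of the 10 factors. They were also the only 2 of the 9 genes with TGACG, the core of the cyclic AMP response element. It lay in 2 of the 17 windows, against 17.8% of 32851 upstream windows. Over the 8 mice *Cebpb* and *Klf15* had Pearson r = −0.72 (exact permutation p = 0.0455, adjusted p = 0.317). Without WT mouse 1 and *Sucnr1*-/- mouse 1 this r was 0.26. The region of the most downstream *Pparg* start is shown because it holds the C/EBP pattern TTGCNNAA at 2 places. That pattern was found in 9.56% of windows, and C/EBP proteins are known to switch on *Pparg*. Capitals mark TGACG on either strand in the first pair and TTGCNNAA on either strand in *Pparg*, each written 5′ to 3′ on the plus strand, which is that of the gene.
Cebpb, chr2:167688665-167688914: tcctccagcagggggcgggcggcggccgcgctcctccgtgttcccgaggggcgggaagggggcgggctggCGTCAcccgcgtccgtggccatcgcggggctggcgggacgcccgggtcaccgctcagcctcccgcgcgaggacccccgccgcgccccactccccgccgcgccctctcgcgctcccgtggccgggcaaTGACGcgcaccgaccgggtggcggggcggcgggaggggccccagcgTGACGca
Klf15, chr6:90462326-90462575: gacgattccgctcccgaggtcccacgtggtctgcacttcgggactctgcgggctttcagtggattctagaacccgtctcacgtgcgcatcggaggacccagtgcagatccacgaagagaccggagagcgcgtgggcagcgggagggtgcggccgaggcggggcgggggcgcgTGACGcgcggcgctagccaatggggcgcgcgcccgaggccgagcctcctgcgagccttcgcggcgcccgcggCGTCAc
Pparg, chr6:115421816-115422065: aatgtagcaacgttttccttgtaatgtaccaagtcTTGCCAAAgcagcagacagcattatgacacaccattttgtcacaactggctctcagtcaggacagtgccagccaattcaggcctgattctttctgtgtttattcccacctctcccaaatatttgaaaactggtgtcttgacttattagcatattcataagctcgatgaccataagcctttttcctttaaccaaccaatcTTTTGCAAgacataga
The *Cebpb* region held 3 copies of TGACG and the *Klf15* region 2. G and C made up 81.6% of the *Cebpb* bases, 72% of the *Klf15* bases and 40.8% of the *Pparg* bases. The full element TGACGTCA (1.55% of windows), the STAT pattern TTCNNNGAA (7.02%) and the sterol element core TCACCCCAC (0.496%) were found before none of the 9 genes. The E-box CACGTG (6.02%) lay only before *Klf15*, and the TATA box TATAAA (12.4%) before *Cebpa* and 1 *Pparg* start. The nuclear receptor hexamer AGGTCA (14%) lay before starts of *Pparg*, *Rxra* and *Zfp423*, and the C/EBP pattern also before *Zfp423*. The CCAAT box (33.8%) was found before *Klf15*, *Pparg* and *Srebf1*, in 5 of the 17 windows. The GC box GGGCGG (32.7%) lay before 6 of the 9 genes, in 9 of the 17 windows. Each percentage is a share of single windows and not of genes. Such matches describe the letters and do not show that a factor was bound.

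The values are log2 expression, so a difference of 1 is a doubling. Array medians lay between 6.28 and 6.36, and between 2 arrays the correlation over all 35556 probe sets was 0.981 to 0.993. *Sucnr1* checked the labels, at 6.02, 6.05, 5.41 and 7.11 in *Sucnr1*-/- mice against 8.68, 8.97, 9.38 and 9.78 in WT mice. The tissue carried the markers of fat, as each of 15 measured adipocyte markers averaged at least 9.61, while the mean of 8 epididymis markers lay between 4.53 and 4.62 in *Sucnr1*-/- mice and between 4.46 and 4.90 in WT mice. Macrophage markers were lower in *Sucnr1*-/- mice in 18 of 20 cases, where 46.8% of all genes had a lower mean. Their list means were 9.94 to 10.22 against 10.24 to 10.62 in WT mice. *Mertk*, the marker of smallest unadjusted p in that list, was higher without overlap (difference 0.44, SE 0.12, limma adjusted p = 0.712). The next 2 by unadjusted p, *Adgre1* (−0.50, SE 0.15) and *Cd68* (−0.49, SE 0.15), were lower without overlap (limma adjusted p = 0.712 for both). Over all genes, 2.37% were higher and 1.87% lower without overlap. All 8 measured markers each of mast, B and T cells were lower, with median differences of −0.33, −0.80 and −0.36. Neutrophil markers ran the other way, with 5 of 7 higher and 2 lower (median 0.19). No marker of macrophages, mast cells, B cells, T cells or neutrophils passed limma after adjustment. In bulk tissue, fewer cells of a type and less RNA per cell cannot be told apart.

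No adipogenic transcription factor passed the test for a difference between the genotypes. After Benjamini-Hochberg adjustment of the limma p-values across 18820 genes, 0 of the 10 factors and 0% of all genes were called, and the factors' adjusted p lay between 0.719 and 0.999. At an unadjusted p under 0.05 the count was also 0, against 6.82% of all genes (3.46% higher and 3.36% lower in *Sucnr1*-/- mice). In no factor did all 4 *Sucnr1*-/- mice lie outside the range of the WT mice, as happened for 4.24% of all genes. The means of 8 factors were higher in *Sucnr1*-/- mice and those of 2 were lower, where 46.8% of all genes had a lower mean, with a median difference of 0.04 (*Sucnr1*-/- minus WT, log2) against 0.01 over all genes. That split was not stable, as 4 or 5 factors had the lower mean without WT mouse 1, WT mouse 3, *Sucnr1*-/- mouse 1 or *Sucnr1*-/- mouse 2. With the macrophage marker score as a covariate 7 factors did. That score was lower in every *Sucnr1*-/- mouse than in any WT mouse, so such a fit can hardly tell score from genotype. The 95% intervals of all 10 differences lay within 1 log2 unit of 0, and those of 8 factors within 0.5. A difference of 2-fold in the mean thus lay outside the interval of every factor, and smaller ones within these intervals could not be resolved with 4 mice per genotype.

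**Figure D1:**
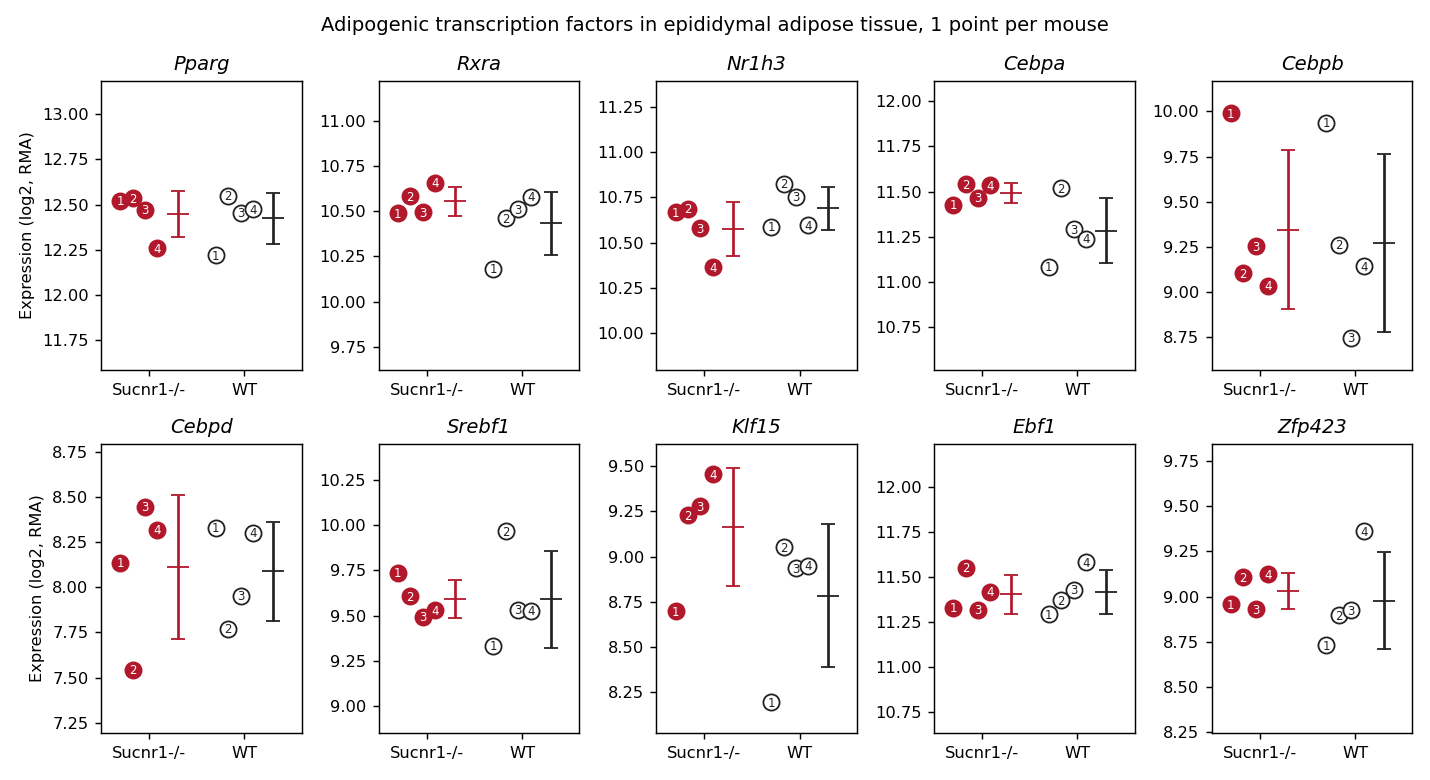
Log2 expression (vertical axis, each panel spanning the same range) of the 10 factors, 1 point per mouse, *Sucnr1*-/- as filled and WT as open circles, the digit being the replicate number. Bars give the mean and SD of 4 mice. The genotypes overlap in every panel, and WT mouse 1 is the lowest of all mice for 7 of the 10 genes.

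Among the nuclear receptors, *Pparg* was nearly equal between the genotypes. Its values were 12.52, 12.53, 12.47 and 12.26 in *Sucnr1*-/- mice and 12.22, 12.55, 12.46 and 12.47 in WT mice. In both genotypes 1 mouse lay below the other 3, and the ranges almost coincided. The difference was 0.02 (SE 0.09, 95% interval −0.19 to 0.23, limma adjusted p = 0.958). *Rxra*, its DNA-binding partner, measured 10.49, 10.58, 10.49 and 10.66 in *Sucnr1*-/- mice against 10.18, 10.46, 10.51 and 10.58 in WT mice. WT mouse 1 was the lowest and the other values overlapped, and the difference of 0.12 (SE 0.09, adjusted p = 0.764) was 0.04 without that mouse. *Nr1h3*, the LXRα gene, was one of the 2 factors with a lower mean in *Sucnr1*-/- mice, at 10.67, 10.69, 10.58 and 10.36 against 10.59, 10.82, 10.75 and 10.60 in WT mice. The lowest value belonged to *Sucnr1*-/- mouse 4 and the highest to WT mouse 2, with overlap between. The *Nr1h3* difference was −0.12 (SE 0.09, adjusted p = 0.769), and it was −0.05 without *Sucnr1*-/- mouse 4. Macrophages, which also express *Nr1h3*, had lower marker levels in the same mice. With the macrophage marker score as a covariate the *Nr1h3* difference was −0.16 (SE 0.15, limma adjusted p = 0.999). As that score did not overlap between the genotypes, this fit can hardly tell score from genotype. The part of macrophages in the *Nr1h3* difference was not tested.

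Of the C/EBP genes, *Cebpa*, which maintains the mature fat cell and its insulin sensitivity, had the smallest unadjusted p of the 10 factors. It was at 11.43, 11.54, 11.47 and 11.54 in *Sucnr1*-/- mice and at 11.08, 11.52, 11.29 and 11.24 in WT mice. All *Sucnr1*-/- mice lay above 3 of the WT mice, whereas WT mouse 2 fell within their range. The means were 11.49 ± 0.06 in *Sucnr1*-/- and 11.28 ± 0.18 in WT mice (SD, n = 4 each), a difference of 0.21 (SE 0.09, 95% interval −0.00 to 0.42). Limma gave an adjusted p of 0.719, and the exact two-sided permutation test of this gene alone gave p = 0.0857, where 0.0286 is the smallest that 4 mice against 4 allow. The difference was 0.29 without WT mouse 2 (limma adjusted p = 0.612) and 0.14 without WT mouse 1 (limma adjusted p = 0.852). With the macrophage marker score as a covariate it was 0.03 (SE 0.12, limma adjusted p = 0.999). As that score did not overlap between the genotypes, this fit can hardly tell score from genotype.

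*Cebpb* and *Cebpd*, the early C/EBP genes, which also respond to inflammatory and stress signals, varied far more between mice than between genotypes. *Cebpb* had values of 9.99, 9.11, 9.26 and 9.03 in *Sucnr1*-/- mice against 9.94, 9.26, 8.75 and 9.14 in WT mice. In each genotype mouse 1 stood well above the other 3. The difference of 0.07 (SE 0.28, adjusted p = 0.953) was far smaller than its error, and was −0.14 without *Sucnr1*-/- mouse 1 and 0.29 without WT mouse 1. As covariates, the immediate early gene score gave 0.34 (SE 0.08, limma adjusted p = 0.740), the adipocyte marker score 0.44 (SE 0.22) and the macrophage marker score 0.64 (SE 0.36). The macrophage score did not overlap between the genotypes, so the fit with it can hardly tell score from genotype. *Cebpd* measured 8.14, 7.54, 8.44 and 8.32 in *Sucnr1*-/- mice and 8.33, 7.77, 7.95 and 8.30 in WT mice. Both the lowest and the highest *Cebpd* value belonged to *Sucnr1*-/- mice, and the difference was 0.02 (SE 0.21, adjusted p = 0.983). The spread within genotypes, as the pooled SD, was 0.47 for *Cebpb* and 0.34 for *Cebpd*, larger than that of 96.2% and 92.4% of all genes, while *Pparg* (0.14, above 49.8%) and *Cebpa* (0.13, above 48.7%) were near the middle.

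*Klf15* showed the largest difference of the 10 factors, without passing the test. Its values were 8.70, 9.23, 9.28 and 9.45 in *Sucnr1*-/- mice against 8.19, 9.05, 8.94 and 8.95 in WT mice. In 3 *Sucnr1*-/- mice the level exceeded that of every WT mouse, but *Sucnr1*-/- mouse 1 lay below 3 WT mice, and WT mouse 1 was the lowest of all. The means were 9.17 ± 0.33 in *Sucnr1*-/- and 8.78 ± 0.40 in WT mice (SD, n = 4 each), a difference of 0.38 (SE 0.22, 95% interval −0.12 to 0.88), or a 1.3-fold higher mean. Limma gave an adjusted p of 0.732 and the exact permutation test of this gene alone p = 0.229. Without WT mouse 1 the difference was 0.19 (adjusted p = 0.876), without *Sucnr1*-/- mouse 1 it was 0.54 (adjusted p = 0.549), and without both mice numbered 1 it was 0.34 (adjusted p = 0.616). As covariates, the immediate early gene score gave a *Klf15* difference of 0.19, the adipocyte marker score 0.09 and the macrophage marker score −0.16. The last of these fits can hardly tell score from genotype, as the macrophage score did not overlap between the genotypes. *Srebf1*, the lipogenic factor, was at 9.74, 9.61, 9.49 and 9.53 in *Sucnr1*-/- mice and at 9.33, 9.97, 9.53 and 9.53 in WT mice. The WT mice held both extremes, with an SD of 0.27 against 0.11 in *Sucnr1*-/- mice, and the means differed by 0.00 (SE 0.13, adjusted p = 0.999).

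The 2 factors that act in precursors differed little in mean between the genotypes. *Ebf1*, which acts in precursors and is kept in mature fat cells, was at 11.33, 11.55, 11.32 and 11.42 in *Sucnr1*-/- mice and 11.29, 11.37, 11.43 and 11.58 in WT mice. Both genotypes covered about the same range, and the difference was −0.01 (SE 0.08, adjusted p = 0.970). *Zfp423* had values of 8.96, 9.11, 8.93 and 9.12 in *Sucnr1*-/- mice, against 8.73, 8.90, 8.92 and 9.36 in WT mice. All *Sucnr1*-/- values lay between the WT extremes, and the difference of 0.05 (SE 0.13, adjusted p = 0.925) was −0.03 without WT mouse 1 and 0.18 without WT mouse 4.

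**Figure D2:**
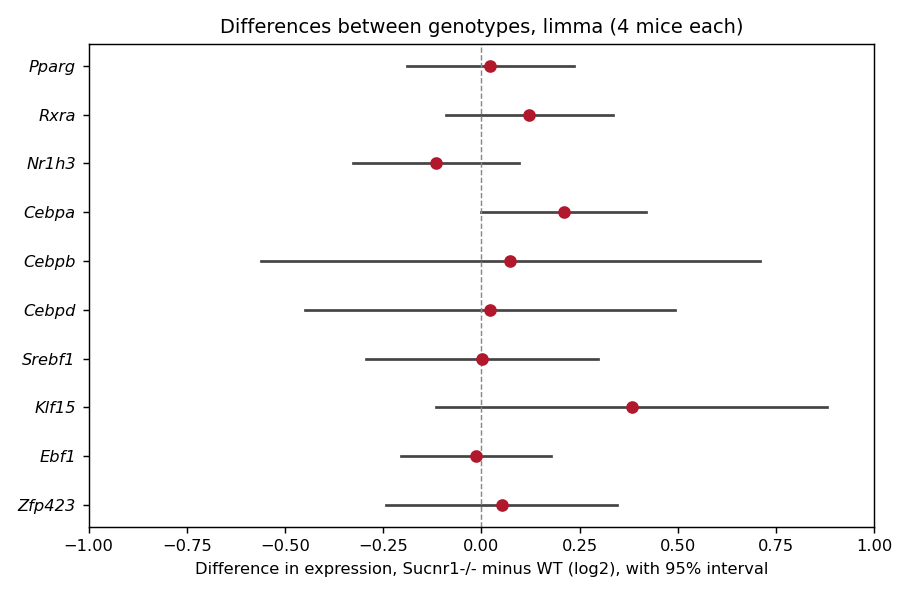
Difference in log2 expression (*Sucnr1*-/- minus WT, horizontal axis) of each factor with its 95% interval from limma, 4 mice per genotype. Every interval reaches across 0, that of *Cebpa* only just, and the widest belong to *Cebpb*, *Klf15* and *Cebpd*.

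A single WT mouse set the low end for most of the factors. WT mouse 1 had the lowest value of the 8 mice for *Pparg*, *Rxra*, *Cebpa*, *Srebf1*, *Klf15*, *Ebf1* and *Zfp423*, that is for 7 of 10 genes, whereas it was the lowest for 24.2% of all genes. This mouse also had the lowest mean of 15 adipocyte markers (12.37, against 12.62 to 12.69 in *Sucnr1*-/- mice and up to 12.68 in the other WT mice) and the highest mean of 20 macrophage markers. Its score for immediate early genes, such as *Fos* and *Egr1*, which respond within minutes to stimuli and handling, was the highest as well (0.68). Of the 16 measured genes of that list 13 had a lower mean in *Sucnr1*-/- mice, with list means of 8.31 to 9.16 against 8.47 to 9.41 in WT mice. The remaining 3 had a higher mean. Among these was *Jun*, the gene of smallest unadjusted p in the list, without overlap (difference 0.28, SE 0.08, limma adjusted p = 0.712). Such a separation in the same direction was seen for 2.37% of all genes. Next by unadjusted p, *Nr4a1* (−0.74, SE 0.25, limma adjusted p = 0.712) and *Fos* (−0.68, SE 0.31, limma adjusted p = 0.719) were lower, with overlap. The next highest immediate early score was that of *Sucnr1*-/- mouse 1 (0.43), and the other 6 mice lay between −0.42 and 0.07.

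Across the 8 mice, *Klf15* and *Cebpb* ran in opposite directions along the immediate early score. A score here is the mean, over the measured genes of a list, of the log2 distance from each gene's average. *Klf15* was lower where the score was higher (Pearson r = −0.93, exact permutation p = 0.00124, adjusted p = 0.0248; Spearman rho = −0.81, p = 0.0218, adjusted p = 0.145). Without the 2 mice farthest from the median score, both numbered 1, r was −0.68 (exact p = 0.143, n = 6), so the relation rests in large part on those mice. For *Cebpb* the relation ran the other way (r = 0.90, exact permutation p = 0.00771, adjusted p = 0.0617; rho = 0.83, p = 0.0154, adjusted p = 0.145), and r was 0.45 without the same mice (exact p = 0.392). *Rxra* followed the score of 15 adipocyte markers (r = 0.98, exact permutation p = 0.000546, adjusted p = 0.0218; rho = 0.90, p = 0.00456, adjusted p = 0.145). It still did so without the 2 mice farthest from the median of that score (r = 0.88, exact p = 0.0153, n = 6). These were the only 2 calls by r, with 0 by rho, among 40 relations of the 10 factors with 4 scores. No relation was called without WT mouse 1, without WT mouse 2 or without *Sucnr1*-/- mouse 4, whereas 5 were called without WT mouse 4 and 1 without *Sucnr1*-/- mouse 2. Within genotypes, as deviations from the genotype means, r was −0.94 for *Klf15*, 0.98 for *Cebpb* and 0.97 for *Rxra*. No relation of the 40 was then called (exact permutation within genotypes, adjusted p = 0.154 for *Klf15* and 0.104 for *Cebpb* and *Rxra*). Permuting 4 mice within each genotype gives few arrangements, which limits how small p can become. The lack of a call there thus says little about these relations. Among the 45 pairs of factors 6 reached an unadjusted p under 0.05 and none passed after adjustment. The smallest p belonged to *Ebf1* and *Zfp423* (r = 0.86, exact permutation p = 0.0035, adjusted p = 0.157; rho = 0.69, p = 0.0694; r = 0.66 without the 2 mice farthest from the median of *Ebf1*). *Klf15* with *Rxra* had r = 0.87 (adjusted p = 0.178) and *Cebpa* with *Klf15* r = 0.83 (adjusted p = 0.178), but without the 2 mice farthest from the median of the first gene these were 0.22 and 0.59.

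**Figure D3:**
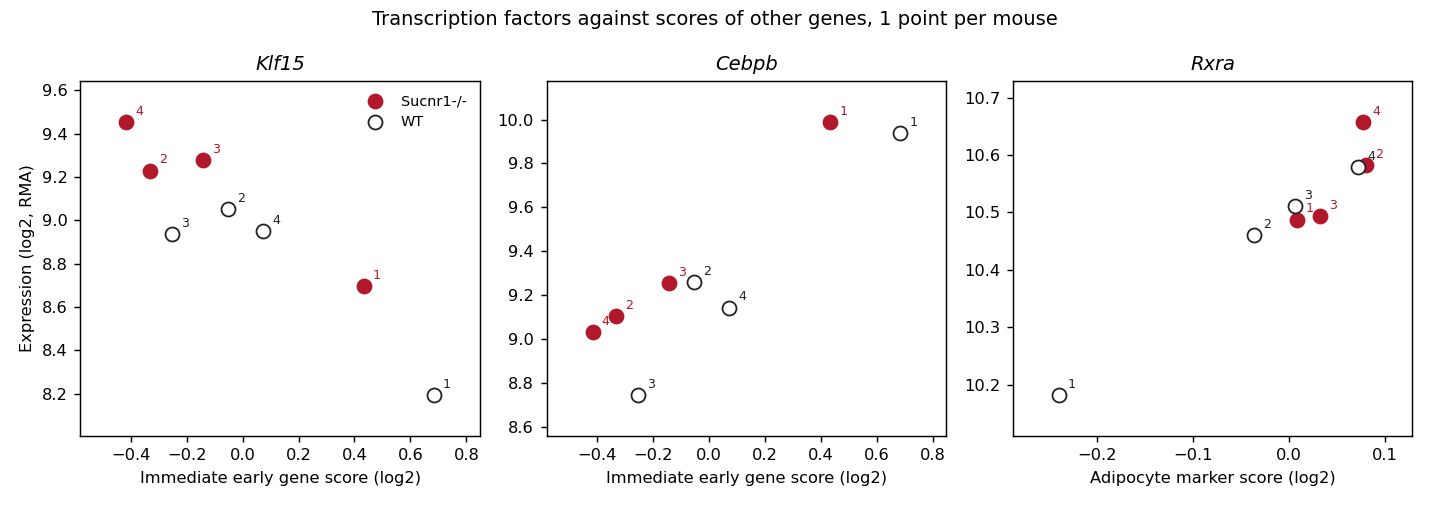
Log2 expression (vertical axis) of *Klf15* and *Cebpb* against the immediate early gene score and of *Rxra* against the adipocyte marker score (horizontal axes, mean log2 distance from each gene's average), 1 point per mouse, *Sucnr1*-/- filled and WT open, the digit being the replicate number. WT mouse 1 lies at the far end of each panel, and *Sucnr1*-/- mouse 1 next to it in the immediate early panels.

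By profile over the 8 mice, the genes most like *Klf15* among 16868 compared were *Rere*, a transcriptional corepressor (r = 0.99), *Plekha6* (0.98) and *Gatd3a* (0.98). Those most like *Cebpa* were *Acaa1a*, a peroxisomal thiolase of fatty acid oxidation (0.98), *Ndufb10*, a subunit of respiratory complex I (0.96), and *Rbm33* (0.96). Those most like *Rxra* were *Man2c1*, a cytosolic mannosidase (0.98), *Gsn*, the actin-severing protein gelsolin (0.98), and *Med25*, a subunit of the Mediator complex (0.98). These are the highest of many correlations over few mice and are given as a description.

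The genes that these factors control were likewise not called between the genotypes. Of 172 genes listed as targets, partners, cofactors or other regulators of fat cell formation, 156 were measured, and 0 passed limma after adjustment. At an unadjusted p under 0.05, 8 were higher and 5 lower in *Sucnr1*-/- mice, which is 8.33% against 6.82% of all genes, and their median difference was 0.01, as over all genes. That count of 13 was 4 without *Sucnr1*-/- mouse 2 or mouse 3 and 21 without *Sucnr1*-/- mouse 1. The genotypes did not overlap for 4 of the 156 genes, *Apoc2*, *Sgk1*, *Hdac3* and *Zfp467*, which is 2.56% against 4.24% of all genes. Of 25 measured PPARγ targets 15 had a higher and 10 a lower mean (median 0.05), and 10 of the 25 also serve as adipocyte markers. *Slc2a4*, the insulin-responsive glucose transporter and a target of both PPARγ and C/EBPα, was at 9.68, 9.84, 9.76 and 9.87 in *Sucnr1*-/- mice against 9.14, 9.35, 9.42 and 9.85 in WT mice. In 3 WT mice the level was below that of every *Sucnr1*-/- mouse, and WT mouse 4 lay among them (difference 0.35, SE 0.14, adjusted p = 0.712). *Plin1*, the coat protein of lipid droplets, differed by 0.14 (SE 0.09), and *Fabp3*, a fatty acid-binding protein, by 0.25 (SE 0.13). Of 14 C/EBP targets 11 were higher and 3 lower (median 0.09), with *Retn*, which encodes resistin, at 0.13 (SE 0.07). Of these 14, 6 also serve as adipocyte markers. *Saa3*, an acute-phase gene of inflamed fat, differed most of the 3 lower targets, at −1.36 with an SE of 0.77 (adjusted p = 0.731). For *Saa3*, 3 *Sucnr1*-/- mice lay below all WT mice but *Sucnr1*-/- mouse 1 above them.

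Targets of SREBP1 were divided while *Srebf1* itself differed by 0.00. Of 17 measured targets 10 were higher and 7 lower in *Sucnr1*-/- mice (median 0.04). The lipid droplet protein *Pnpla3* had values of 9.85, 10.03, 9.25 and 9.45 in *Sucnr1*-/- mice against 8.60, 9.45, 8.82 and 9.14 in WT mice. The groups overlapped through WT mouse 2, and the difference of 0.64 (SE 0.22, adjusted p = 0.712) was the largest of the list. *Acss2*, which makes acetyl-CoA from acetate, differed by 0.30 (SE 0.13), and *Elovl5*, an elongase of polyunsaturated fatty acids, by −0.18 (SE 0.07). Of 11 measured LXR targets 9 were lower and 2 higher (median −0.12). Some of these differences were close to 0, and the dimmest gene of the list averaged 4.80, below the median of every array. *Apoc2*, the apolipoprotein that activates lipoprotein lipase, was at 8.19, 7.67, 7.83 and 7.98 in *Sucnr1*-/- mice against 8.29, 8.48, 8.65 and 8.67 in WT mice. No *Apoc2* value of a *Sucnr1*-/- mouse reached the lowest WT value (difference −0.60, SE 0.13, limma adjusted p = 0.712), a separation seen in the same direction for 1.87% of all genes. *Apoc1*, the apolipoprotein gene of the same cluster, differed by −0.36 (SE 0.15) and *Lpcat3*, a phospholipid-remodelling enzyme, by −0.15 (SE 0.06). Macrophages also express LXR targets, and their markers were lower in the same mice. The part of this in the LXR targets was not tested.

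Of 19 measured targets of KLF15 and glucocorticoids 9 were higher and 10 lower (median −0.04). *Gpt*, an alanine aminotransferase of amino acid breakdown, was at 8.36, 8.48, 8.26 and 8.20 in *Sucnr1*-/- mice against 7.75, 7.84, 7.70 and 8.21 in WT mice. WT mouse 4 alone reached the *Sucnr1*-/- range, and the difference was 0.45 (SE 0.12, adjusted p = 0.712). *Zbtb16*, a zinc-finger factor induced by glucocorticoids, differed by 0.45 (SE 0.20). *Sgk1*, a kinase of the same hormone response, differed by −0.15 (SE 0.06) with no overlap between the genotypes.

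**Figure D4:**
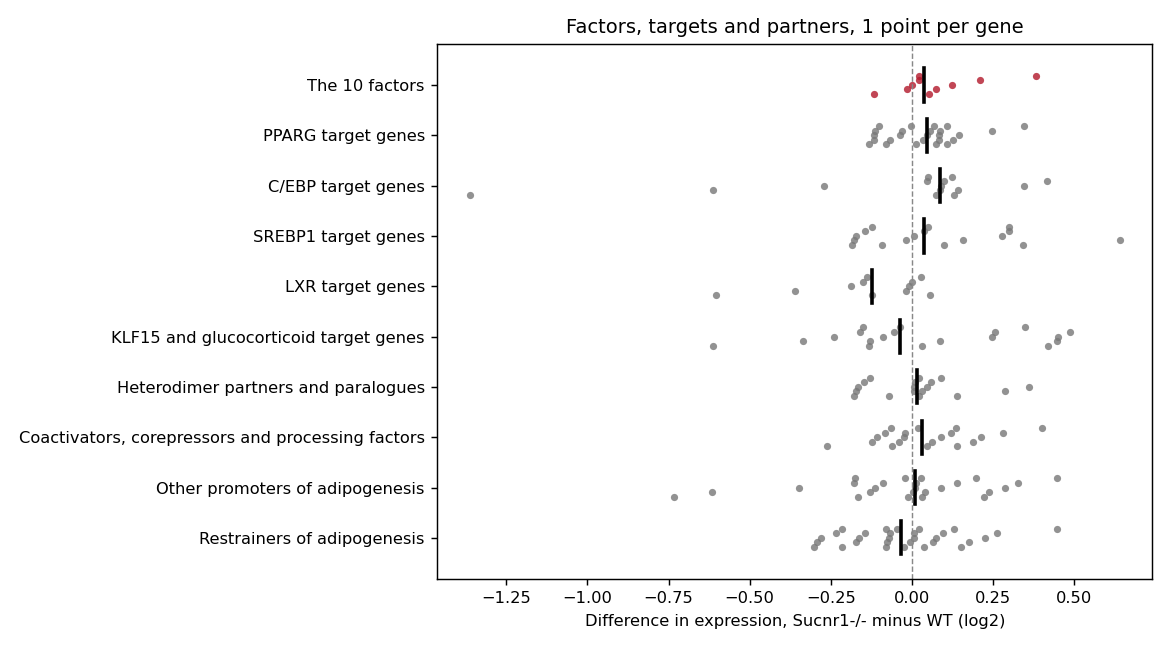
Difference in log2 expression (*Sucnr1*-/- minus WT, horizontal axis) of each measured gene of the 10 factors and of 9 lists of their targets, partners and other regulators (rows), with a bar at the median. Medians lie between −0.12, for LXR targets, and 0.09, for C/EBP targets, and the point farthest to the left is *Saa3*.

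No partner or regulator of the factors was called. Of 18 measured paralogues and heterodimer partners 12 were higher and 6 lower (median 0.02), and none was below 0.05 unadjusted. The smallest p in that list belonged to *Rxrg*, the RXR form of muscle and fat (0.36, SE 0.19). Of 20 coactivators, corepressors and processing factors 11 were higher and 9 lower (median 0.03). *Hdac3*, the deacetylase of the nuclear receptor corepressor complex, was at 11.15, 11.33, 11.22 and 11.08 in *Sucnr1*-/- mice and 10.89, 11.02, 10.98 and 11.03 in WT mice. These *Hdac3* values did not overlap (difference 0.21, SE 0.07, adjusted p = 0.712), a separation seen in the same direction for 2.37% of all genes. *Ppargc1a*, the coactivator of mitochondrial biogenesis, differed by 0.40 (SE 0.25) and *Insig2*, which retains SREBP in the endoplasmic reticulum, by 0.19 (SE 0.12). Of 25 other promoters of fat cell formation 14 were higher and 11 lower (median 0.01), with *Tcf7l1* at 0.33 (SE 0.13) and *Zfp467*, without overlap, at 0.24 (SE 0.11). Of 30 restrainers 13 were higher and 17 lower (median −0.03), none below 0.05 unadjusted. *Dlk1*, the precursor protein that holds back differentiation, differed by 0.15 (SE 0.09), *Id3* by −0.21 (SE 0.12) and *Tgfb1* by −0.23 (SE 0.16). Several genes stand in more than 1 of these lists, so the lists are not independent of each other.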

How the data were processed

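Epididymal adipose RNA of 8 mice was measured on 1 array each. The deposited values are log2 expression that the authors made with RMA per the submitters' processing notes, which corrects background, normalizes arrays together and summarises probe sets. The version of RMA, a genome build for the probes and scan dates are not given in the sources used here, so no batch could be examined. Of 35556 probe sets, 21218 carried exactly 1 gene symbol in the platform annotation, 1881 several and 12457 none. The brightest probe set stood for a gene, which left 18820 genes. Each of the 10 factors had 1 probe set.

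*Sucnr1*-/- and WT mice were compared with limma 3.58.1 in R 4.3.3 (lmFit, eBayes, 2.66 prior degrees of freedom), with p-values adjusted by Benjamini-Hochberg across the 18820 genes and called at 0.05. Replicates are separate mice by their labels, 4 per genotype, and their number limits the precision. Single genes were also tested by exact two-sided permutation over 70 splits of the mice, and relations across mice by exact permutation of the pairings. The code was tested on simulated data. The factors and gene lists, written from textbook knowledge, were chosen with earlier results of these data known. All factors are named, with at most 3 genes from a list, taken by lowest unadjusted p, the 3 genes of most similar profile for the 3 factors of largest difference, and *Fos* and *Egr1* as examples of their list.

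Other settings tried were a prior that follows intensity, the methods' t-test, removal of dim genes, weighted arrays, centring on the median, quantile normalization, averaged probe sets, the replicate number as a block, marker scores (adipocyte, macrophage, immediate early) as covariates, and arrays left out. The labels do not say that a replicate number marks a shared litter or day. Same-numbered mice deviated together with r over 0.1 in 3 of 4 pairs and with 0.0148 in the pair numbered 4. Whether the mice were paired was thus not settled. The main fit took no pairs, and the fit with the number as a block is given at the end.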

Additional observations from a re-analysis of the deposited data

Results flagged for a closer look

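WT mouse 1 stood apart from the other WT mice for *Klf15*, at 8.19 against 8.94, 8.95 and 9.05. Its gap to the nearest of them was 0.866 of the range of the 4 values, above Dixon's critical value for 4 samples. This was 1 of 20 groups tested over the 10 factors, and chance alone marks about 1 in 20. Without this mouse the *Klf15* difference was 0.19 (*Sucnr1*-/- minus WT, log2, limma adjusted p = 0.876).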

How the results depend on the processing

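No factor and no gene was called in any of the 20 other settings. With 4 mice per genotype the differences of most factors were close to 0, and the direction of most of them changed in some settings. It reversed in 0 of 20 settings for *Cebpa* and *Nr1h3*, in 1 for *Klf15*, and in up to 10 for the others (*Srebf1*). Apart from *Ebf1* with median centring and *Srebf1* with array weights, the reversals came with scores as covariates or with mice left out. The cause was not tested. The macrophage score did not overlap between the genotypes, so a fit with it can hardly tell score from genotype. With the macrophage score as a covariate, *Cebpa* was 0.026, *Cebpb* 0.64, *Cebpd* 0.37, *Ebf1* −0.20, *Nr1h3* −0.16, *Klf15* −0.16, *Pparg* −0.12, *Rxra* −0.088, *Srebf1* −0.18 and *Zfp423* −0.25 (*Sucnr1*-/- minus WT, log2). With the adipocyte score, *Cebpb* was 0.44, *Klf15* 0.089, *Pparg* −0.050, *Rxra* −0.010, *Srebf1* −0.062 and *Zfp423* −0.12. Without both mice numbered 1, *Pparg* was −0.071, *Srebf1* −0.13 and *Zfp423* −0.0070. *Srebf1* was −0.060 with array weights and −0.020 with the immediate early score, and *Ebf1* was 0.027 with median centring. Leaving out 1 mouse at a time gave −0.14 to 0.29 for *Cebpb*, −0.089 to 0.21 for *Cebpd*, −0.063 to 0.040 for *Ebf1*, −0.046 to 0.085 for *Pparg*, −0.084 to 0.13 for *Srebf1* and −0.031 to 0.18 for *Zfp423*. Factors with a lower mean in *Sucnr1*-/- mice numbered 6 with the adipocyte score, 7 with the macrophage score, 5 without both mice numbered 1, 1 with median centring, and 2 to 5 leaving out single mice.

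At an unadjusted p under 0.05 there was 1 factor, *Cebpa*, with median centring, quantile normalization or the intensity-dependent prior, *Cebpb* alone with the immediate early score (1 factor, 0.34), *Klf15* alone without both mice numbered 1 (1 factor), and 0 to 1 leaving out single mice. The count of all genes was 589 with the macrophage score and 808 to 1659 leaving out single mice, against 1284. Median centring gave 1352 higher and 330 lower, quantile normalization 838 and 465, against 652 and 632, and median centring moved the median of all genes to 0.05. Called relations of factors with scores numbered 0 as deviations from genotype means, where few permutations exist, and 0 to 5 leaving out single mice. With the replicate number as a block, 2 factors were below 0.05 unadjusted, *Klf15* (limma adjusted p = 0.355) and *Cebpa* (limma adjusted p = 0.461), 29 listed genes in place of 13, and 1905 of all genes. The correlations of same-numbered mice were 0.454, 0.141, 0.106 and 0.0148, and not every mouse correlated best with its own number. The block changed no adjusted call.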
